A study of Mus musculus with 4 samples.

Results

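Nodal is a secreted ligand of the TGF-beta family that patterns the early embryo. It binds the type I receptor ACVR1B and the type II receptors ACVR2A and ACVR2B together with the coreceptor Cripto, encoded by Tdgf1, and the receptors then phosphorylate SMAD2 and SMAD3, which enter the nucleus with SMAD4 and bind target genes with partners such as FOXH1. Among the targets are Nodal itself and its secreted antagonists Lefty1 and Lefty2, so the pathway carries a positive and a negative loop. Undifferentiated mouse embryonic stem cells are known to make Nodal, Cripto and both Lefty proteins.

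The 8 genes described here were chosen by name from the pathway and found through the Ensembl identifiers that GENCODE M21 gives those names: the ligand Nodal, the related ligand Gdf3, the coreceptor Tdgf1, the receptor Acvr2b, the antagonists Lefty1, Lefty2 and Cer1, and the intracellular inhibitor Skil. All 8 were found among the 55401 gene identifiers of the tables, and 7 passed the filter on low counts and were tested. Messenger RNA had been sequenced from EB3, a line of mouse embryonic stem cells, and from cells derived from it, grown on gelatin in serum medium with LIF, a cytokine that keeps them undifferentiated. The 4 libraries were 1 of the parental line (genotype WT), 1 of EB3-derived cells with an empty vector, labelled WT(empty vec), and 2 of EB3-derived cells of genotype NUP98-HOXA9, labelled #1 and #2 and called fusion replicates 1 and 2 here. NUP98-HOXA9 is a fusion of a nucleoporin with a homeodomain factor, known from acute myeloid leukaemia. The labels name no promoter for the fusion. They give no information on whether #1 and #2 were clones, pools or repeat cultures, so the spread between those libraries may be technical. A p-value here reflects the spread between these samples alone. The parental and empty-vector libraries were pooled for the tests, so that spread includes any difference between these controls. A single library controls for the vector.

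Levels below are in CPM (counts adjusted for depth with TMM factors), and runs of 4 values follow the order parental, empty vector, then the fusion replicates by number. Reads assigned to Hoxa9, part of which the fusion carries, came to 0, 0, 189.7 and 127 CPM, which separates the fusion libraries from the controls as labelled but not the parental library from the empty vector. Other genes of the cluster were also higher with the fusion, Hoxa3 at 0, 0.053, 69.8 and 39.2 CPM, and reads of the fusion and of the cell's own Hoxa9 cannot be told apart in these tables. The libraries held 19021386 to 21151729 expected counts (estimated read counts per gene). Markers of embryonic stem cells were high in all 4: the 9 listed markers, among them Pou5f1 and Dppa5a, summed to between 5050 and 6050 CPM, and 0 of the 9 passed the test between groups. The sum hides shifts inside the list. The groups did not overlap for 6 of the 9, beside 51.3% of all genes tested. Nanog, Klf4 (log2 fold change 1.4, edgeR adjusted p = 0.0651) and Tfcp2l1 were higher with the fusion, and Sox2, Utf1 and Zfp42 lower. Markers of primitive and visceral endoderm moved with the fusion: 10 of 12 tested were higher, beside 2.83% of all genes tested, and the 15 listed summed to 201 CPM (parental), 177 CPM (empty vector), 805 CPM (fusion replicate 1) and 906 CPM (fusion replicate 2). The endoderm sum also hides differences inside its list. Its largest term in both controls, Lrp2, did not pass, with 112, 101, 57.3 and 142 CPM (log2 fold change -0.092). The largest terms with the fusion were Col4a1 (25, 18.2, 384 and 307 CPM) and Lama1 (48.9, 47.2, 227 and 206 CPM). Cubn passed but was uneven between the fusion libraries (0.885, 0.849, 7.27 and 82.2 CPM). Of the endoderm list, Afp, Ttr and Apoa1 stayed under 1 CPM in every library. The 7 mesoderm and streak markers summed to between 16.8 and 40.3 CPM and the 7 fibroblast markers to between 27.3 and 55.8 CPM. The part of these markers in the results below was not tested. In bulk RNA, fewer cells of a type and less RNA per cell cannot be told apart.

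Some members share sequence with other genes, which bears on how their reads were counted. The difference between transcript length and effective length in the tables is 74 bases, the value that reads of 75 bases give. Of the 75-base words in the annotated transcripts of Lefty1, 11.7% also occur in Lefty2, and of those of Lefty2, 7.77% occur in Lefty1. For Tdgf1, 5.99% of the words also occur in Tdgf1-ps1, a processed pseudogene on chromosome 16 (3730510 to 3731022, plus strand, GRCm38). Nodal, Gdf3, Acvr2b and Skil share 0 words with any other annotated gene, and Cer1 shares 2 of 1665.

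The coding sequences of Lefty1 and Lefty2 are both 1104 bases without the stop codon and 91.8% identical, with 90 differing bases. Of the 1030 windows of read length along them, 173 (16.8%) are identical, and the median window holds 3 differences. The first window with that number, bases 213 to 287 counted from the start codon, shows what a read must resolve, from the GENCODE M21 transcripts (GRCm38), with differing bases in capitals:
Lefty1: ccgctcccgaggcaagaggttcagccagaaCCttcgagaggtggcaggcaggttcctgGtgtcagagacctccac
Lefty2: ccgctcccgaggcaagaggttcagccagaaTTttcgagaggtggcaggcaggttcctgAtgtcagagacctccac

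Tdgf1 and Tdgf1-ps1 are closer. Over the 513 coding bases of Tdgf1 the pseudogene differs at 7, an identity of 98.6%, and 161 of 439 windows (36.7%) are identical. The first window with the median of 1 difference, bases 1 to 75 from the start codon, is shown with that base in capitals:
Tdgf1: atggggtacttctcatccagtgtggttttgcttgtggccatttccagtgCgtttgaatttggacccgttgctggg
Tdgf1-ps1: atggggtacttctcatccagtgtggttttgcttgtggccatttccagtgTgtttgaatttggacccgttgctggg

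Nodal and Tdgf1 were both lowest in the parental library and highest with the empty vector, as described below, and their promoters are shown for that reason. They are RefSeq's, from 250 bases before to 50 after the annotated start, on build GRCm38.p6. Promoter entries were matched by symbol for 4 of the 8 members. Capitals mark the SMAD binding element CAGAC on either strand:
Nodal, chr10:61417722-61418021, plus strand: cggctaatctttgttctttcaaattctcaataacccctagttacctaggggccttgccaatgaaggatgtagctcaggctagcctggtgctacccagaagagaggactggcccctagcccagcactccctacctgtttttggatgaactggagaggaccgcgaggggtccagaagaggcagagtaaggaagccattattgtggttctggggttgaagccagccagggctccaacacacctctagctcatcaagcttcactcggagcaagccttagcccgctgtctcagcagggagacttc
Tdgf1, chr9:110946109-110946408, minus strand: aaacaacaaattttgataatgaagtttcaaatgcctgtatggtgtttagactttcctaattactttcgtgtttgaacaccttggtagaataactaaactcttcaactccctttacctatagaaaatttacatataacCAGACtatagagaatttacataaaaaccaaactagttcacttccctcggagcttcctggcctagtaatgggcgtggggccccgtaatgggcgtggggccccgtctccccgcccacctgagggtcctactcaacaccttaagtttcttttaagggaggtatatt

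The Nodal window holds 0 copies of CAGAC and the Tdgf1 window 1. The same element occurs in 49.6% of 32851 promoters of this length. The core of the FOXH1 site, AATCCACA on either strand, was found in neither window and in 0.855% of all promoters. The palindromic element GTCTAGAC, which does not overlap CAGAC, was found in neither and in 0.213% of all. Both are so rare over all promoters that their absence from these windows carries little information. Sequence outside the windows was not searched, so sites elsewhere at these genes remain unknown here.

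The main comparison set the 2 fusion libraries against the 2 controls, pooled as the wild-type group, and asked whether members were higher or lower with the fusion. None of the 7 tested members passed an adjusted p of 0.05 in edgeR's quasi-likelihood test, and 1 of them, Lefty2, had an unadjusted p under 0.05. DESeq2 and limma also called 0 of the 7, though Lefty2 came near the threshold by the DESeq2 Wald test (adjusted p = 0.0519). Over all genes 3.42% of 16511 were called (2.83% higher and 0.581% lower), a share that would give fewer than 1 call among 7 genes. The members had a median log2 fold change of -0.48, with 5 negative and 2 positive, beside a median near 0 over all genes tested.

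For several members the 2 controls were further apart than the groups. The empty-vector and parental libraries were at least 2-fold apart for 3 of the 7 tested members, Nodal, Tdgf1 and Lefty2, while 3.07% of the 7724 genes averaging 20 CPM or more were that far apart. The 7 members all lie above that mean. The fusion replicates were at least 2-fold apart for 1 of 7, Lefty1, against 3.02% of the same genes. With 1 library on each side, these differences between libraries have no test.

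**Figure D1:**
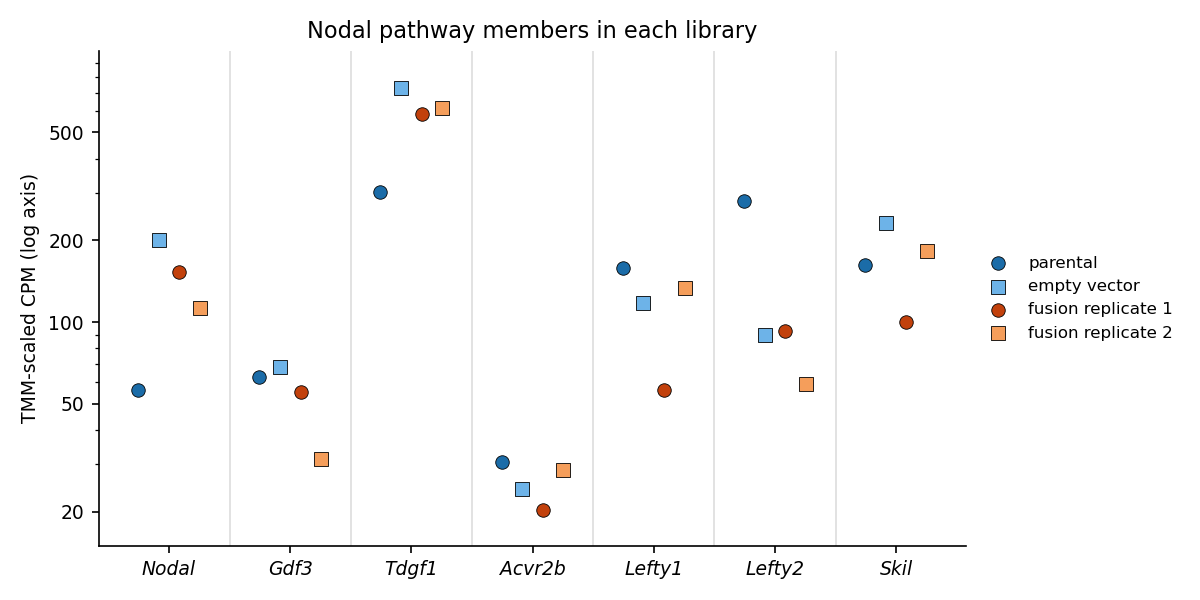
TMM-scaled CPM (log axis) of the 7 tested members in each of the 4 libraries; each point is 1 library, and Cer1, near 0, is not drawn. Nodal and Tdgf1 are lowest and Lefty2 highest in the parental library, and only for Gdf3 do both fusion points lie outside the range of the controls on the same side.

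Nodal (ENSMUSG00000037171, chromosome 10, 61417972 to 61425338, plus strand, in GENCODE M21 on GRCm38, as for all members) stood at 56.3 CPM in the parental library, 200 CPM with the empty vector, and 153 and 113 CPM in fusion replicates 1 and 2. Both fusion libraries thus lay between the controls, and the parental library was the low one. The empty-vector library was 3.55 times the parental one (95% exact binomial interval 3.32 to 3.81, which like all intervals on ratios of 2 libraries here covers counting error only). Between fusion and wild-type the log2 fold change was 0.053 (SE 0.51, 95% interval -1.16 to 1.26, adjusted p = 0.969). The interval spans from a fold of 0.448 to a fold of 2.4, so a change of any size in that range is not excluded. Set against the empty vector alone, Nodal had a log2 fold change of -0.6 (edgeR adjusted p = 0.311), and against the parental line alone 1.22 (adjusted p = 0.0536), so the direction turns with the control.

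Gdf3, a ligand of the same family that also acts through Cripto (ENSMUSG00000030117, chromosome 6, 122605403 to 122610087, minus strand), was the steadier ligand between controls. It stood at 62.5 CPM (parental), 68.4 CPM (empty vector), 55.1 CPM (fusion replicate 1) and 31.3 CPM (fusion replicate 2). Both fusion libraries were below both controls, the 1 case among the 7 tested members where the groups did not overlap; over all genes tested the groups did not overlap for 51.3%. The log2 fold change was -0.6 (SE 0.28, 95% interval -1.27 to 0.07, adjusted p = 0.304). Fusion replicate 2 gave most of the distance, since without it the log2 fold change was -0.25 (edgeR adjusted p = 0.628), and without replicate 1 it was -1.07 (adjusted p = 0.14).

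Tdgf1 (ENSMUSG00000032494, chromosome 9, 110939603 to 110946158, minus strand), which encodes the coreceptor that lets Nodal engage its receptors, was, like Nodal, lowest in the parental library and highest with the empty vector. It stood at 301 CPM in the parental library, 731 CPM with the empty vector, and 583 and 615 CPM in fusion replicates 1 and 2. Both fusion libraries lay between the controls, with replicate 2 the higher one where for Nodal it was replicate 1. Both lay there for 2 of the 7 tested members and for 11.6% of all genes tested. The empty-vector library was 2.43 times the parental one (interval 2.36 to 2.51). The log2 fold change between fusion and wild-type was 0.21 (SE 0.37, 95% interval -0.67 to 1.1, adjusted p = 0.812). Against the empty vector alone it was -0.3 (edgeR adjusted p = 0.631) and against the parental line alone 0.97 (adjusted p = 0.0657).

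The pseudogene Tdgf1-ps1, whose sequence is shown above beside that of Tdgf1, carried 588, 1361, 1173 and 1369 expected counts in the 4 libraries. That was 10.2%, 9.87%, 10.1% and 10.1% of the count of Tdgf1 in the same library. The share hardly moved while Tdgf1 itself differed 2.43-fold between the controls. How many of these reads came from Tdgf1 cannot be read from gene-level counts.

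Acvr2b (ENSMUSG00000061393, chromosome 9, 119402118 to 119434995, plus strand), a type II receptor shared by Nodal, activins and GDF11, had the lowest TPM (level per transcript length) of the tested members in every library. It stood at 30.4 CPM (parental), 24.2 CPM (empty vector), 20.3 CPM (fusion replicate 1) and 28.6 CPM (fusion replicate 2). The groups overlapped, and the log2 fold change of -0.16 (SE 0.27, 95% interval -0.79 to 0.47, adjusted p = 0.803) had the narrowest interval of the 7, from a fold of 0.578 to a fold of 1.39; by limma on log2(TPM + 1) it was 0.0032. Its mean transcript length in the tables, weighted over isoforms by their estimated abundance, was 2639 bases in both controls and 2595 and 2456 bases in fusion replicates 1 and 2. An antisense gene, Gm47320, overlaps Acvr2b and had 0 counts in every library.

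The antagonists Lefty1 and Lefty2 lie near each other on chromosome 1 and differed in which library was low. Lefty1 (ENSMUSG00000038793, 180935022 to 180938400, plus strand) stood at 158 CPM (parental), 118 CPM (empty vector), 56.2 CPM (fusion replicate 1) and 134 CPM (fusion replicate 2). Only fusion replicate 1 was outside the range of the controls. The fusion replicates differed 2.38-fold (interval 2.22 to 2.55). The log2 fold change was -0.54 (SE 0.38, 95% interval -1.45 to 0.37, adjusted p = 0.509); it was -1.3 without fusion replicate 2 (edgeR adjusted p = 0.069) and -0.052 without replicate 1 (adjusted p = 0.954).

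Lefty2 (ENSMUSG00000066652, 180893108 to 180899103, plus strand) stood at 279 CPM in the parental library, 89.4 CPM with the empty vector, and 93 and 59.3 CPM in fusion replicates 1 and 2. Here the parental library was the high one, 3.13 times the empty-vector library (interval 2.96 to 3.3), and the empty-vector library lay between the fusion replicates. The log2 fold change was -1.28 (SE 0.5, 95% interval -2.45 to -0.1, unadjusted p = 0.0368, adjusted p = 0.216 by edgeR). Without the empty-vector library, that is against the parental line alone, it was -1.9 and passed (adjusted p = 0.0137); against the empty vector alone it was -0.24 (adjusted p = 0.808). The call therefore depends on which control is used. As shown above, 16.8% of read-length windows in the coding sequence cannot separate the Lefty genes, and the split of those reads was estimated by the authors' software.

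Cer1 (ENSMUSG00000038192, chromosome 4, 82881751 to 82885148, minus strand), which encodes Cerberus-like, an inhibitor of Nodal, BMP and Wnt ligands made by the anterior visceral endoderm, was close to absent. It had 2 counts in the parental library, 0 with the empty vector, 0 in fusion replicate 1 and 1 in fusion replicate 2. These are at or under a floor of 3 counts over each group, so no fold is given. Of the 8 listed genes of the anterior visceral endoderm, 7 were tested; 0 were higher, beside 2.83% of all genes, and 1, Otx2, was lower, beside 0.581%. Dkk1, a Wnt inhibitor of the same list named after its values were seen, stood at 0.208, 0, 1.5 and 1.23 CPM (log2 fold change 3.63, edgeR adjusted p = 0.0825), with both fusion libraries above both controls.

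Skil (ENSMUSG00000027660, chromosome 3, 31095058 to 31122577, plus strand) encodes SnoN, a repressor that binds SMAD proteins and is itself induced by their signal. It stood at 163 CPM (parental), 232 CPM (empty vector), 100 CPM (fusion replicate 1) and 183 CPM (fusion replicate 2). Replicate 1 was below both controls and replicate 2 between them. The log2 fold change was -0.48 (SE 0.31, 95% interval -1.22 to 0.26, adjusted p = 0.463). The weighted transcript length of Skil was 6059, 5697, 5411 and 5721 bases in the 4 libraries, shortest where its count was lowest.

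**Figure D2:**
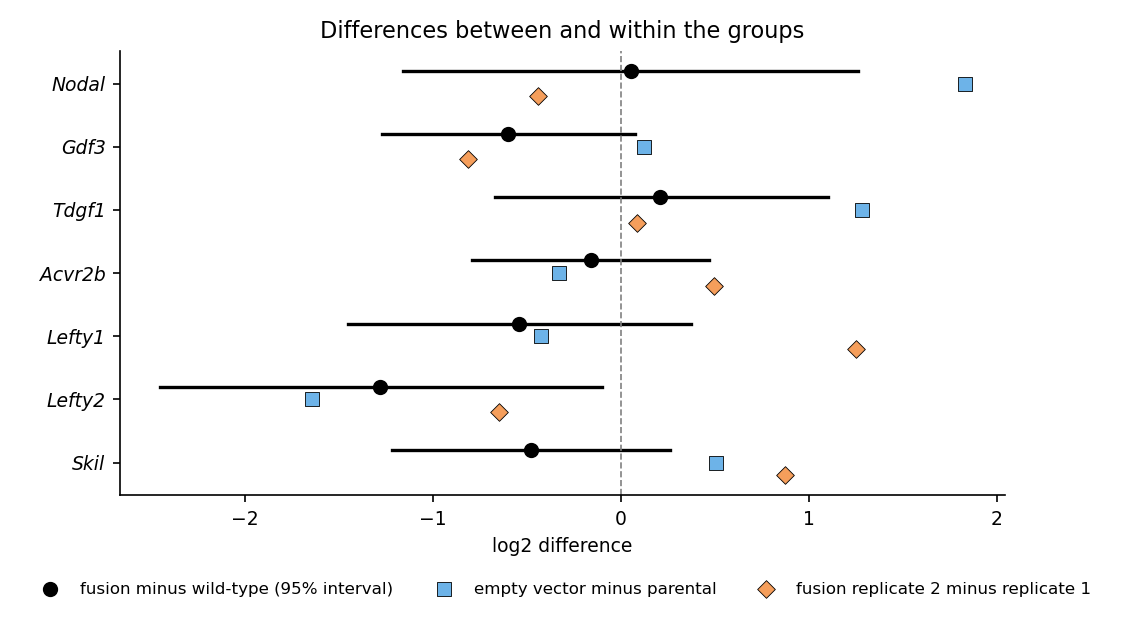
For each tested member, the log2 fold change of fusion minus wild-type with its 95% interval (black), and the log2 ratio of empty vector to parental (square) and of fusion replicate 2 to replicate 1 (diamond), neither with an interval. The interval includes 0 for all but Lefty2. For Nodal, Tdgf1, Lefty2 and Acvr2b, and narrowly for Skil, the controls differ by more than the groups do.

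Compared per transcript length, on the deposited TPM scale, Tdgf1 was the most abundant member in every library, with levels of 227, 588, 486 and 517 TPM in the 4 libraries. Cer1 was lowest and Acvr2b next in every library, Acvr2b at levels of 11.8 to 18.3 TPM. The order between them changed. In the parental library Lefty2 and Lefty1 came next after Tdgf1, at 159 and 150 TPM, levels that lie close together, and Nodal was at 37.3 TPM, between Gdf3 at 41.8 and Skil at 36.5 TPM. With the empty vector Nodal was second at 143 TPM, ahead of Lefty1 at 119 TPM, and Lefty2 was at 56.3 TPM. Fusion replicate 1 had Nodal second at 112 TPM with Lefty1 and Lefty2 level at 58.6 and 58 TPM, and replicate 2 had Lefty1 second at 144 TPM, then Nodal at 85 and Lefty2 at 39 TPM.

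The balance of antagonist to ligand transcripts was also far apart between the controls. The summed TPM of Lefty1 and Lefty2 was 8.29 times that of Nodal in the parental library, 1.23 times with the empty vector, and 1.04 and 2.16 times in fusion replicates 1 and 2. The parental library stood apart from the other 3. The ratio of Tdgf1 to Nodal was steadier, at 6.08, 4.11, 4.35 and 6.08 in the same order. The ratio of Lefty2 to Lefty1 was 1.07, 0.473, 0.99 and 0.271, and the groups overlapped.

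For chromosomes 1, 3, 4, 6, 9 and 10, which hold the members, the median log2 ratio of a library to the mean of the other 3, over genes of at least 10 CPM, lay between -0.09 and 0.06. The nearest tested protein-coding gene on either side of each member did not pass the test in any case. Lrrc2, 5.39 kb from Tdgf1, stood at 22.3 CPM (parental), 42.6 CPM (empty vector), 6.57 CPM (fusion replicate 1) and 14.7 CPM (fusion replicate 2) (adjusted p = 0.114, edgeR), low in both fusion libraries where Tdgf1 was not. Dppa3, an oocyte and germline factor 16.3 kb from Gdf3, stood at 38.8, 23.8, 0.602 and 7.98 CPM in the same order (log2 fold change -2.86, SE 0.91, adjusted p = 0.143). Eif4ebp2, 3.15 kb from Nodal, lay between 318 and 377 CPM in all 4 libraries, while Nodal itself ranged from 56.3 to 200 CPM.

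The genes with the profile most like that of Nodal over the 4 libraries, by Euclidean distance between centred log2(CPM + 1) values among 10678 genes, were Ptp4a3 (distance 0.152), Pros1 (0.231) and Cd55 (0.236). Ptp4a3, a tyrosine phosphatase, stood at 57, 188, 140 and 98.7 CPM in the 4 libraries. Nearest to Tdgf1 were Fam198b (0.042), Tdgf1-ps1 (0.0485) and Vwa3b (0.1), and nearest to Lefty1 were Plxdc1 (0.0908), Gabarapl1 (0.0927) and Tnfaip8 (0.0999). With 4 libraries and so many genes, close profiles are a description only.

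Around the members, the wider Nodal and activin pathway was described by 7 lists of ligands, proconvertases, receptors, inhibitors, transducers and targets, 63 genes in all with the members. Of these 57 were tested; 7 rose, Pcsk6, Acvr1b, Tgfbr3, Smad7, Pmepa1, Foxa2 and Sox17, beside 2.83% of all genes, and 1, Otx2, fell, beside 0.581%. The lists were chosen with earlier results of these data known, and Foxa2 and Sox17 are also endoderm markers, so these shares are a description and not a neutral comparison. The median log2 fold change over the 57 was 0.06. None of the 8 is one of the members. Their groups did not overlap, as for 30 of the 57 and for 51.3% of all genes tested. Since the 8 were chosen by the same comparison, that adds nothing to their calls. With any 1 library left out fewer pathway genes rose, fewest without fusion replicate 1, where calls over all genes also fell. Some genes that rose without a control library were not among these 7. The log2 fold changes without fusion replicate 1 were 0.96 for Pcsk6, 0.99 for Acvr1b, 1.83 for Tgfbr3, 1.03 for Smad7, 1.59 for Pmepa1 and 3.46 for Foxa2; Sox17, with few counts in the controls, is given by its counts below.

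**Figure D3:**
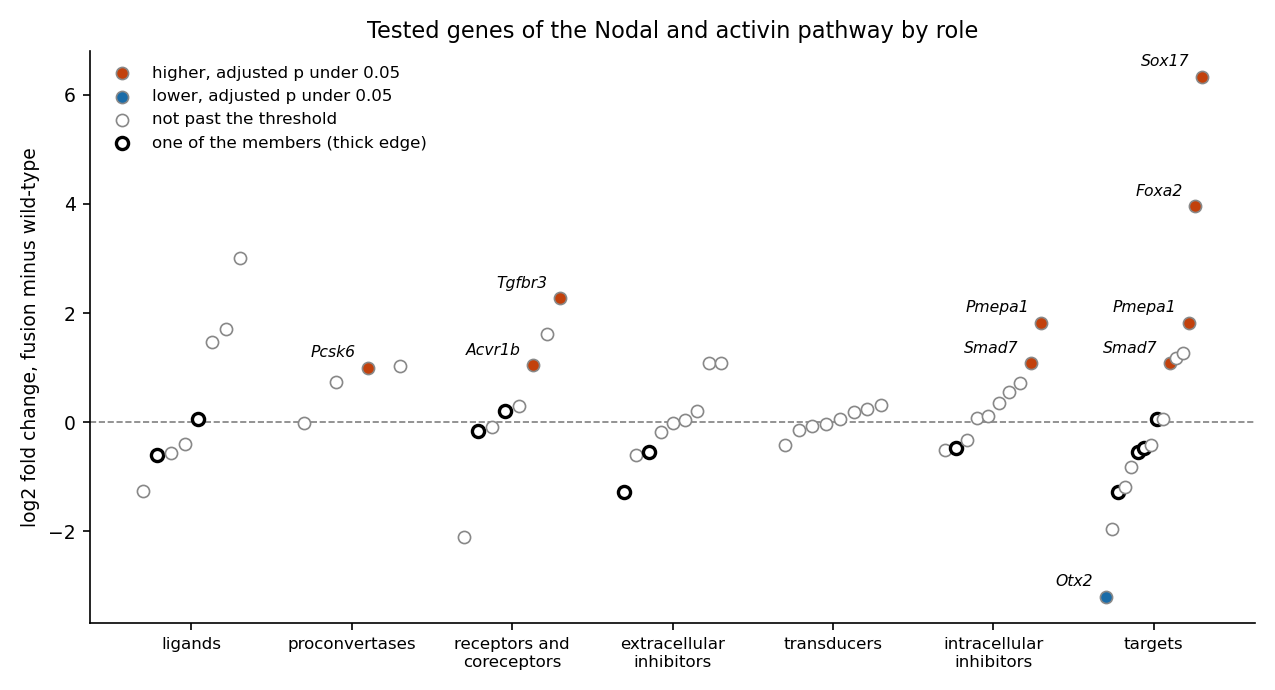
Log2 fold change of fusion minus wild-type for each tested gene of the 7 role lists; filled points passed the adjusted p threshold of 0.05 and thick edges mark the members. The members lie between -1.28 and 0.21 and none is filled, while Pcsk6, Acvr1b, Tgfbr3, Smad7 and Pmepa1 are filled between 1.0 and 2.27.

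Of the ligands, 8 of 10 were tested and none passed. Inhbb, which encodes the activin B subunit and is named here after its values were seen, stood at 2.03 CPM in the parental library, 11.5 CPM with the empty vector, and 40.4 and 68.4 CPM in fusion replicates 1 and 2 (log2 fold change 3.01, SE 0.71, adjusted p = 0.0696, edgeR). The fusion libraries were both above the controls, which themselves differed 5.67-fold. Gdf1, a ligand also named after its values were seen, went the other way, at 6.46, 6.05, 1.95 and 3.24 CPM (log2 fold change -1.26, adjusted p = 0.154, edgeR). Gdf11 and Tgfb3, named in the same way, were higher in both fusion libraries. Gdf11 stood at 3.23, 2.55, 9.57 and 6.34 CPM (log2 fold change 1.46, adjusted p = 0.101, edgeR). Tgfb3 stood at 0.417, 0.371, 1.5 and 1.09 CPM (log2 fold change 1.7, adjusted p = 0.137, edgeR). Inhba, the activin A subunit, had at most 7 counts in a library, and Mstn had 0 in all.

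Pcsk6, which encodes PACE4, a convertase that cleaves the Nodal precursor, was the 1 of 4 tested proconvertases to rise. It stood at 38.5 CPM (parental), 38.6 CPM (empty vector), 79.1 CPM (fusion replicate 1) and 75.5 CPM (fusion replicate 2) (log2 fold change 1.0, SE 0.18, adjusted p = 0.037, edgeR). The controls were level here, unlike for Nodal. Its call was lost whichever of the 4 libraries was left out (adjusted p from 0.0716 to 0.143), while the log2 fold change stayed between 0.96 and 1.04. Furin, the other convertase known to act on Nodal, named after its values were seen, stood at 30.5, 9.39, 26.5 and 39.8 CPM in the 4 libraries (adjusted p = 0.5).

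Of the receptors and coreceptors, 8 of 9 were tested; Acvr1b and Tgfbr3 rose and none fell. Acvr1b, the type I receptor for Nodal and activin, stood at 54.8 CPM (parental), 47.5 CPM (empty vector), 108 CPM (fusion replicate 1) and 102 CPM (fusion replicate 2) (log2 fold change 1.04, SE 0.18, adjusted p = 0.0346, edgeR). Tgfbr3, which encodes betaglycan, a coreceptor for TGF-beta and inhibin, stood at 2.03, 3.98, 18.3 and 10.7 CPM in the same order (log2 fold change 2.27, SE 0.46, adjusted p = 0.0487). Acvr1c, the other type I receptor that can bind Nodal, had 0 counts in all libraries. Cfc1, a coreceptor named after its values were seen, stood at 1.51, 2.12, 0.0501 and 0.775 CPM (log2 fold change -2.1, edgeR adjusted p = 0.248). Tgfbr2, named in the same way, was higher with the fusion, at 1.61, 0.955, 4.71 and 3.19 CPM (log2 fold change 1.61, edgeR adjusted p = 0.13). Acvr1b lost its call without the empty-vector library (adjusted p = 0.0989) or either fusion replicate (0.136 without replicate 1, 0.0654 without replicate 2). Tgfbr3 lost its own without the parental library (0.0806), without fusion replicate 1 (0.225) or 2 (0.0538), and with library totals in place of TMM (0.0502).

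None of the 9 tested extracellular inhibitors and none of the 8 tested transducers passed. Nomo1, part of a membrane complex that restrains Nodal signalling, lay between 144 and 164 CPM, and Tmeff1, a membrane protein that binds Cripto, between 120 and 164 CPM. Among the transducers Trim33, a SMAD-binding chromatin factor, lay between 93.2 and 114 CPM, and Smad2 between 59.8 and 82 CPM. The levels of these abundant genes differed little between libraries when set beside those of Nodal or Lefty2. Less abundant genes of the lists could differ more. Foxh1, a transducer named after its values were seen, stood at 41.7, 40.9, 59.8 and 26 CPM, 2.3-fold apart between the fusion replicates.

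Among the intracellular inhibitors, 10 of 10 were tested; Smad7 and Pmepa1 rose and none fell. Smad7, an inhibitory SMAD that is induced by TGF-beta family signals, stood at 49.4 CPM (parental), 53.5 CPM (empty vector), 112 CPM (fusion replicate 1) and 106 CPM (fusion replicate 2) (log2 fold change 1.08, SE 0.18, adjusted p = 0.0298, edgeR). Pmepa1, which encodes a membrane protein that sequesters SMAD2 and SMAD3, stood at 13.4, 10.9, 49.2 and 36.8 CPM in the same order (log2 fold change 1.82, SE 0.26, adjusted p = 0.0215). Both are also listed as targets, with Skil, Lefty1, Lefty2 and Nodal, which did not pass. Smad6, an inhibitory SMAD outside the lists and named after its values were seen, was higher too. It stood at 4.48, 3.98, 37.2 and 29 CPM (log2 fold change 2.97, adjusted p = 0.00847, edgeR). Smad7 lost its call whichever library was left out (adjusted p from 0.0512 to 0.116, log2 fold change from 1.01 to 1.12), and Pmepa1 lost its call only without fusion replicate 1 (adjusted p = 0.0951).

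**Figure D4:**
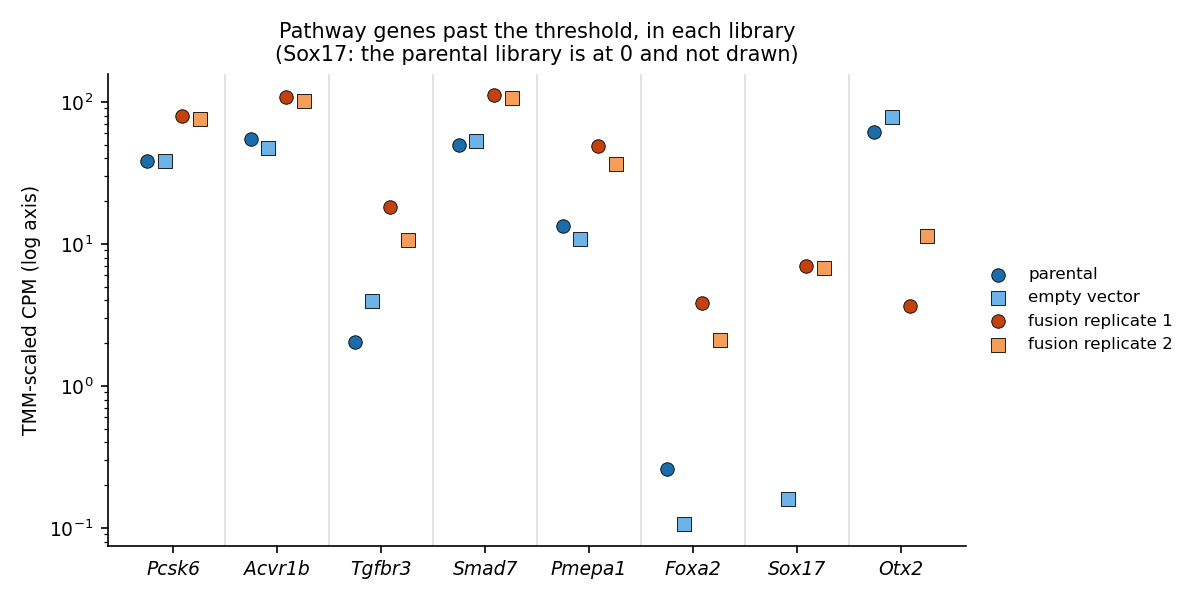
TMM-scaled CPM (log axis) of the 8 pathway genes past the threshold in each library; Sox17 is at 0 in the parental library and that point is not drawn. Both fusion points lie above both controls for 7 genes and below them for Otx2. The genes were chosen by that same comparison.

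Of the 18 listed targets 16 were tested, 4 rose and 1 fell. Besides Smad7 and Pmepa1, the endoderm factors Foxa2 and Sox17 rose. Foxa2 stood at 0.26 CPM (parental), 0.106 CPM (empty vector), 3.81 CPM (fusion replicate 1) and 2.1 CPM (fusion replicate 2) (log2 fold change 3.96, SE 0.67, adjusted p = 0.0324, edgeR). For Sox17 the controls together gave 3 counts and the fusion libraries 287; scaled to depth the ratio was 86.9 (95% exact binomial interval 29.4 to 424; adjusted p = 0.0153). Both are also on the endoderm marker list, which rose as described above; its part in their rise was not tested. Otx2, a homeodomain factor of the epiblast and anterior visceral endoderm, fell: it stood at 61.3, 78, 3.66 and 11.4 CPM in the same order (log2 fold change -3.2, SE 0.5, adjusted p = 0.0259). The target T, also a mesoderm marker and named after its values were seen, was lower without passing. It stood at 7.19, 4.99, 1.9 and 1.23 CPM (log2 fold change -1.96, adjusted p = 0.0664, edgeR). Otx2 did not pass without the parental library (adjusted p = 0.161) or without the empty-vector library (0.14), and Foxa2 did not pass without the empty-vector library (0.0613) or without fusion replicate 1 (0.144). Sox17 had an adjusted p of 0.0537 without fusion replicate 1.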

How the data were processed

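RNA-seq libraries of 4 samples were analysed: parental, empty vector and 2 with NUP98-HOXA9. Per the file headers, the authors deposited RSEM gene tables with expected counts (estimated counts), TPM and FPKM; the deposited FPKM values were not used. The submitters' processing notes list STAR 2.7.10a, RSEM 1.3.3, DESeq2 1.36.0 and the build GRCm38 (mm10); no source used here gives the annotation release or the strand setting. A stranded mRNA kit was used, per the labels' protocols.

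Of the 55401 identifiers, 99.5% were matched to GENCODE M21. Expected counts were rounded and tested across 16511 genes with edgeR 4.0.16 in R 4.3.3 (TMM, filterByExpr at a minimum count of 10, robust quasi-likelihood fit, two-sided, Benjamini-Hochberg over all genes, threshold 0.05). The steps were also run on simulated counts, with larger planted changes than the members showed and no difference between the controls. That run does not tell which changes in the members could be missed. SE is the absolute log2 fold change divided by the square root of F; 95% intervals use the t distribution with the fit's degrees of freedom. Comparisons with 1 library left out assume that the lone library of a group varies like the others. Alternatives used DESeq2 1.42.0 and limma 3.58.1 on log2(TPM + 1) and log2(TPM + 0.1). Named were the 8 members, up to 5 called genes of each list or else its 2 most abundant, neighbouring genes, and 3 genes most alike to Nodal, Lefty1 and Tdgf1. Members and lists were chosen with earlier results of these data known.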

Additional observations from a re-analysis of the deposited data

How the results depend on the processing

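No paired analysis was possible because the labels give replicate numbers only to the fusion libraries. Of 12 alternatives, Gdf3, Lefty1 and Skil kept their direction without a call in each. Over the 4 fits that leave out 1 library, the log2 fold change ranged from -0.6 to 1.22 for Nodal, from -0.3 to 0.97 for Tdgf1, from -1.9 to -0.24 for Lefty2 and from -0.43 to 0.062 for Acvr2b. Nodal turned negative with the parental library left out (-0.6) or fusion replicate 1 left out (-0.19), Tdgf1 with the parental library left out (-0.3), and Acvr2b positive without fusion replicate 1 (0.062) and by limma on log2 of TPM plus 1 (0.0032) or plus 0.1 (0.0017). Lefty2 was called only without the empty-vector library, so members called ranged from 0 to 1. Genes called over all were 564 (468 higher, 96 lower), but 1946 (1315 and 631) with no filter and 1363 (931 and 432) by DESeq2; leaving out 1 library gave 163 to 552 in all, 152 to 367 higher and 11 to 185 lower. Pathway genes that rose ranged from 0 to 6 and that fell from 0 to 1 over the same fits, and 2 fell with no filter or by DESeq2. The cause of these changes was not tested. Scaling by size factors or library totals moved the median of all genes by -0.016 and 0.066, and limma on log2 of TPM plus 0.1 moved it by 0.101. Pcsk6 and Tgfbr3 were not called by limma. With 2 libraries a group, the intervals given above for the members are wide, and changes of any size within them are not excluded. Among the members only the interval of Lefty2 did not include 0, and Lefty2 did not pass the adjusted threshold in the main fit.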
